A study of Schizosaccharomyces pombe with 70 samples.

Results

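The genes described here are the annotated genes next to the chromosome ends of the fission yeast Schizosaccharomyces pombe. They were taken as every gene that the array's probe annotation carries under a systematic name containing 1 of 12 clone names (SPAC212, SPAC977, SPAC750, SPAC186, SPAC869, SPBC1348, SPBPB2B2, SPBPB10D8, SPBC1683, SPBPB21E7, SPBPB7E8 and SPBPB8B6). This gave 45 of the 4929 features on the array, of which 41 were annotated as protein coding and 4 as pseudogenes. The annotation writes each name with the prefix SPOM_, which is left out below, and a capital C for the opposite strand. The clones SPBPB21E7 and SPBPB8B6 gave no gene. Another 35 genes of the same clones carry a gene symbol in place of the systematic name and were not included. Of the 45, 44 were tested. SPAC212.03 was not, because 1 group had fewer than 2 arrays with a value for it; over 68 arrays its log2 ratio ran from -1.11 to 0.21 with a median of -0.32.

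The position was checked against the RefSeq gene order (assembly ASM294v3), which is used here for order only because the build behind the array is not named. By that order 43 genes lay within 54 genes of a chromosome end. There were 11 at the left end of chromosome I, 13 at its right end, 15 at the left end of chromosome II and 4 at its right end. The clone SPBPB7E8 did not bear out the label: SPBPB7E8.01 and SPBPB7E8.02 were the 430th and the 429th gene from the right end of chromosome II. They are reported because the naming rule takes them, and counts without them are given with the counts.

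Subtelomeres lie just inside the telomeric repeats. In fission yeast they are packaged in part as heterochromatin, marked by methylation of histone H3 on lysine 9 and bound by the protein Swi6, and genes there are kept low in rich medium and can rise in starved or stressed cells. The region holds many members of repeated gene families, among them transporters and enzymes that use amides, urea, sugars and aldehydes. Roles below are general knowledge, mostly inferred from sequence similarity, and are not part of the array annotation. Near-identical gene copies sit at several ends, so a probe may also read a copy elsewhere. No member sequence is printed.

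Hydroxyurea blocks ribonucleotide reductase, which lowers the supply of nucleotides and stalls replication forks. Asynchronous, mid-log cells of 5 strains were sampled after 0, 10, 30, 60 and 120 min in 8 mM hydroxyurea, grown at 30 degrees. The strains were wild type, the checkpoint mutants rad3, cds1 and chk1, and the double mutant rad3sep1 (written rad3 sep1 in the plots), whose second mutation is in a gene for a forkhead transcription factor. Rad3 is the sensor kinase of the DNA damage and replication checkpoint, and Cds1 and Chk1 are the kinases it activates. The labels give no allele and do not say whether the rad3sep1 strain was 1 isolate. Each array set cDNA of 1 sample (Cy5) against cDNA of untreated wild type (Cy3), with no dye swap. Every value below is therefore a log2 ratio to untreated wild type, and a change is a difference between such ratios.

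The 70 arrays, 15 per strain and 10 of rad3sep1, held 9727 to 9854 of 9858 probe values each, and their number limits the precision. In 9 of 65 pairs of arrays within a group, what differed between the arrays on first probes was unrelated to what differed on second probes, and each such pair was averaged into 1 sample. This left 61 samples, 2 or 3 in each of 20 groups and 1 in each of the 5 rad3sep1 groups. Errors of rad3sep1 therefore rest on the spread of the other groups. The series text calls the repeats biological. The mutated genes were low in their own strains, with rad3 at -2.20 ± 0.57 (SD, n = 14) in rad3, cds1 at -2.45 ± 0.33 (n = 15) in cds1, chk1 at -1.37 ± 0.23 (n = 14) in chk1 and sep1 at -3.54 ± 0.18 (n = 5) in rad3sep1. The sep1 value therefore bears out the double mutant's label.

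Untreated wild type set against the untreated wild type reference should lie near 0, and many of the chromosome-end genes did not. The mean of the 3 wild-type samples at 0 min was more than 0.5 from 0 for 12 of 44 genes, 10 below and 2 above, or 27.3% against 5.08% of all features. The 2 genes above were SPAC977.14C and SPAC750.01, both predicted aldo/keto reductases. For SPAC750.01 this came from the first probe, at 1.54, 1.03 and 1.67, while the second read -0.05, 0.14 and 0.09. The lowest was SPAC750.08C, the last annotated gene on the right arm of chromosome I. Over the 44 genes the median at 0 min was -0.19 in wild type, against -0.01 over all features. A gene-specific offset shared by all arrays cancels in the changes below but not in the levels. The spread was slightly wider than usual, with a median SD within groups of 0.187 against 0.161 over all features and a range over genes of 0.126 to 0.702.

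**Figure D1:**
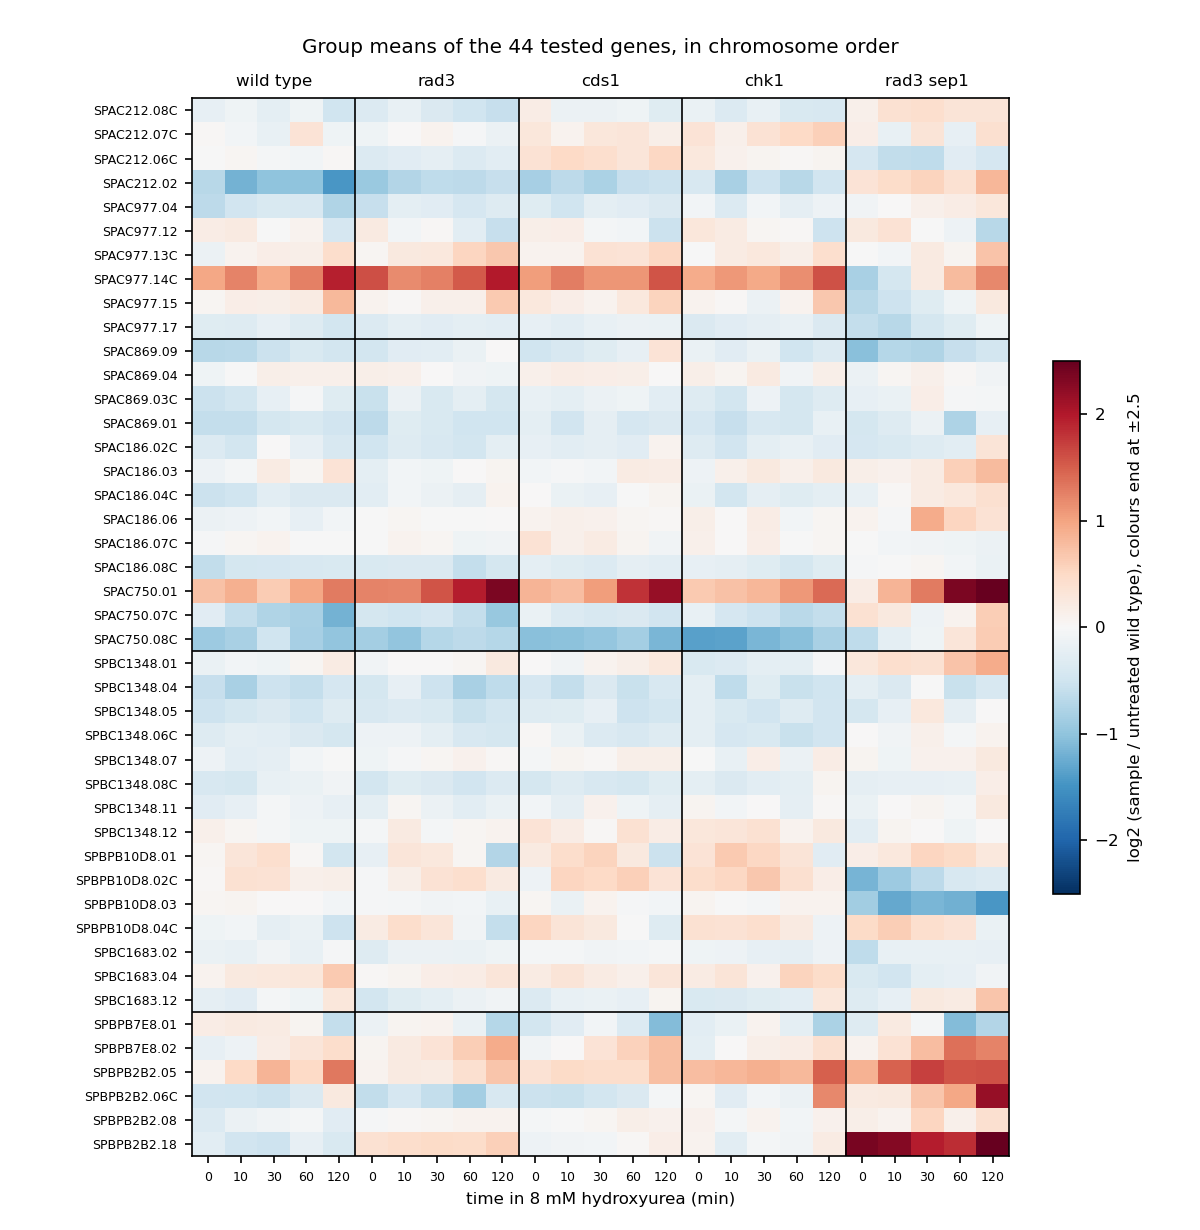
Mean log2 ratio to untreated wild type of each of the 44 tested genes (rows) in each strain and time (columns, min in hydroxyurea). Rows follow the gene order of chromosome I left and right, then chromosome II left and right, with lines between the blocks; the right block of chromosome II starts with the 2 SPBPB7E8 genes, which lie far inside the arm. SPAC977.14C and SPAC750.01 stand above 0 in most columns, and SPBPB2B2.18 is high in the rad3 sep1 columns.

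As a whole the genes were called no more often than the rest of the array in most comparisons. Calls used limma's moderated test on group means, with Benjamini-Hochberg adjustment over all 4921 tested features and a threshold of 0.05. This fit held no term for the replicate number. An early change sets the average of the 10 and 30 min groups against 0 min. A late change does so for the 60 and 120 min groups. Of 57 calls over 18 comparisons 17 passed on each probe alone, and 40 did not on at least 1 probe. Over these comparisons 23 of the 44 genes were called at least once and 21 never, whereas 56.8% of all features were called at least once.

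In untreated cells, 1 gene was higher in rad3 than in wild type (0.955% of all features called), 1 was higher in cds1 (0.122%) and none passed in chk1 (0.142%; 12 genes at an unadjusted p under 0.05). With the replicate number as a block the cds1 comparison gave 3 calls, 2 higher and 1 lower, or 6.82% against 0.874% of all features in that fit. Between untreated rad3sep1 and rad3, 1 gene was higher and 6 were lower, 15.9% of the 44 against 22% of all features. Of the 44 genes 23 lay above 0 in rad3, 36 in cds1 and 35 in chk1, with medians of 0.024, 0.18 and 0.16, where 48%, 48.5% and 47.3% of all features lay above 0. All but the called gene in rad3 and in cds1 missed the threshold. These 3 comparisons share the same untreated wild-type samples, in which the median of the 44 genes was -0.19.

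The early response held few calls. None of the genes passed in wild type (0.772% of all features; 3 genes at an unadjusted p under 0.05), chk1 (1.22%; 3 genes) or rad3sep1 (0.142%; 5 genes). A single gene rose in rad3 (2.24% of all features called) and a single gene in cds1 (0.528%).

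The late response held most of the calls. In wild type 8 genes rose and 2 fell, 22.7% against 24.4% of all features. In rad3 4 rose and 2 fell, 13.6% against 19.3%, and with the replicate block 8 rose and 3 fell, 25% against 29%. In cds1 4 rose and 6 fell, 22.7% against 25%. In chk1 5 rose and 3 fell, 18.2% against 27.5%, and with the replicate block 11 rose and 5 fell, 36.4% against 37.9%. In rad3sep1 8 rose and 1 fell, 20.5% against 16.2%. Without the SPBPB7E8 genes the numbers rising and falling, of 42, were 7 and 1 in wild type, 3 and 2 in rad3, 3 and 6 in cds1, 4 and 3 in chk1 and 7 and 1 in rad3sep1. Under quantile normalization the numbers rising and falling, of 44, were 6 and 3 in wild type, 2 and 3 in rad3, 3 and 5 in cds1, 3 and 3 in chk1 and 2 and 0 in rad3sep1, and in untreated rad3sep1 against rad3 4 were higher and 5 lower. The shares of the 44 called there were 20.5%, 11.4%, 18.2%, 13.6% and 4.55% for the late changes, against 22.5%, 14.1%, 22%, 22.9% and 2.36% of all features, and 20.5% against 21.4% for untreated rad3sep1. The smaller number of calls in late rad3sep1 was therefore shared by the whole array. Besides the calls given below as ended by it, that normalization ended the calls of SPAC977.14C in untreated rad3 (0.41), SPBPB10D8.01 late in cds1 (-0.35), SPAC977.13C and SPBPB10D8.02C late in rad3 (0.42 and 0.39), SPBC1348.01, SPAC977.12 and SPBPB10D8.02C late in rad3sep1 (0.13, -0.53 and 0.72) and SPAC750.01 in late cds1 against wild type (0.59).

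The medians of the late change were small in 4 strains. They were 0.09 in wild type, 0.13 in rad3, 0.01 in cds1 and -0.09 in chk1, where the medians of all features lay between -0.02 and 0.00. In rad3sep1 the median was 0.26 against 0.02, and 34 of 44 genes lay above 0 against 52.5% of all features. All changes of that strain share 1 sample at 0 min. In the early response 37 of 44 genes lay above 0 in rad3 (53.7% of all features), 36 in rad3sep1 (63.9%) and 33 in wild type (52.1%). The numbers were 23 in cds1 (49.3%) and 18 in chk1 (52.4%). Late changes rarely differed between strains: none of the genes passed for rad3 against wild type (1.3% of all features; 3 genes at an unadjusted p under 0.05) or for chk1 against wild type (0% of all features; 1 gene). One gene passed for cds1 against wild type (2.15%) and 2 passed for rad3sep1 against rad3 (0.813%).

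**Figure D2:**
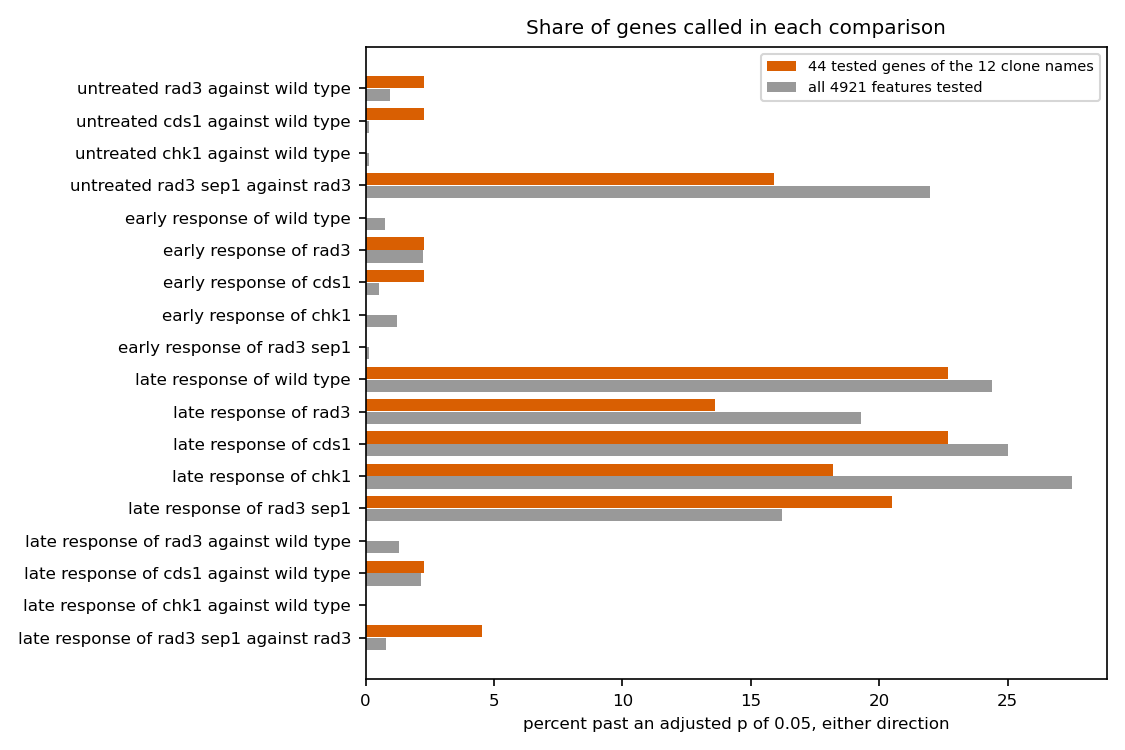
Share of the 44 genes (orange) and of all 4921 features (grey) past an adjusted p of 0.05, in either direction, in each of the 18 comparisons. In the late response the orange bar is the shorter in wild type, rad3, cds1 and chk1 and the longer in rad3 sep1.

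The reductases SPAC977.14C and SPAC750.01 lie at opposite ends of chromosome I, the 27th gene from the left end and the 8th from the right. Aldo/keto reductases reduce aldehydes and ketones with NADPH. In untreated wild type SPAC977.14C stood at 0.80, 1.15 and 0.92, and in untreated rad3 at 1.37, 1.48 and 1.95. The groups did not overlap, and the difference of 0.64 ± 0.17 (SE) passed with an adjusted p of 0.0457. That call was lost when any of 4 samples was left out (wild type replicates 1 and 3, rad3 replicates 2 and 3), with differences of 0.57, 0.63, 0.71 and 0.47.

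Among the untreated strains SPAC977.14C was below 0 only in rad3sep1, at -0.80, and it was higher at each later time, at -0.43, 0.22, 0.79 and 1.19 at 120 min. The untreated difference from rad3 was -2.40 ± 0.24 (adjusted p = 1.86e-10), or 5.29-fold lower. The late rise in rad3sep1 was 1.79 ± 0.25 (adjusted p = 6.22e-07), and the value in rad3 was 0.15 ± 0.15 (adjusted p = 0.529). The late rise exceeded that of rad3 by 1.64 ± 0.30 (adjusted p = 0.00155). Both probes gave these values, with -2.43 and -2.38 for the untreated difference.

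In wild type SPAC977.14C reached 1.74, 1.84 and 2.27 at 120 min, all above the 3 samples at 0 min. The late rise was 0.65 ± 0.15 (adjusted p = 0.00142), and in chk1 it was 0.45 ± 0.15 (adjusted p = 0.0225). Quantile normalization turned both directions, to -0.26 in wild type and -0.15 in chk1, neither past the threshold. The chk1 call was also lost without 0 min replicate 1 (0.30) or the averaged replicates 2 and 3 at 60 min (0.42).

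SPAC750.01 rose late in all 5 strains, although quantile normalization turned its sign in wild type. Its ratios in wild type were 0.74, 0.59 and 0.88 at 0 min and 1.22, 1.27 and 1.44 at 120 min. In cds1 they went from 0.84, 0.81 and 0.92 to 1.98, 2.18 and 2.36, and in rad3 from 1.08, 1.16 and 1.46 to 2.09, 2.27 and 2.72. The time points did not overlap in any of these 3 strains. On this mean of the 2 probes, cds1 and rad3 ended above wild type in every sample. The first probe alone read 1.91, 1.90 and 2.14 in wild type at 120 min. There cds1 read 1.69, 1.93 and 2.05 and rad3 1.90, 1.83 and 2.57, so the strains overlapped. On the second probe untreated rad3 (0.90, 0.88 and 1.16) already lay above untreated wild type (-0.05, 0.14 and 0.09).

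The late rise of SPAC750.01 was 0.40 ± 0.13 in wild type, 0.93 ± 0.13 in rad3, 1.13 ± 0.12 in cds1, 0.61 ± 0.13 in chk1 and 2.36 ± 0.21 in rad3sep1, where the ratio went from 0.19 to 2.73. The rise in cds1 exceeded that in wild type by 0.74 ± 0.18 (adjusted p = 0.013), a call lost without wild type 0 min replicate 3 (0.66, adjusted p = 0.062). The rise in rad3sep1 exceeded that in rad3 by 1.43 ± 0.25 (adjusted p = 9.00e-04), with 1.48 on the first probe (adjusted p = 0.0762 alone) and 1.39 on the second. The wild-type call was lost without 0 min replicate 2 (0.32) or the averaged replicates 2 and 3 at 60 min (0.34). Quantile normalization turned the wild-type value to -0.26 and left 0.01 in rad3, 0.34 in cds1 and 0.17 in chk1, none past the threshold.

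**Figure D3:**
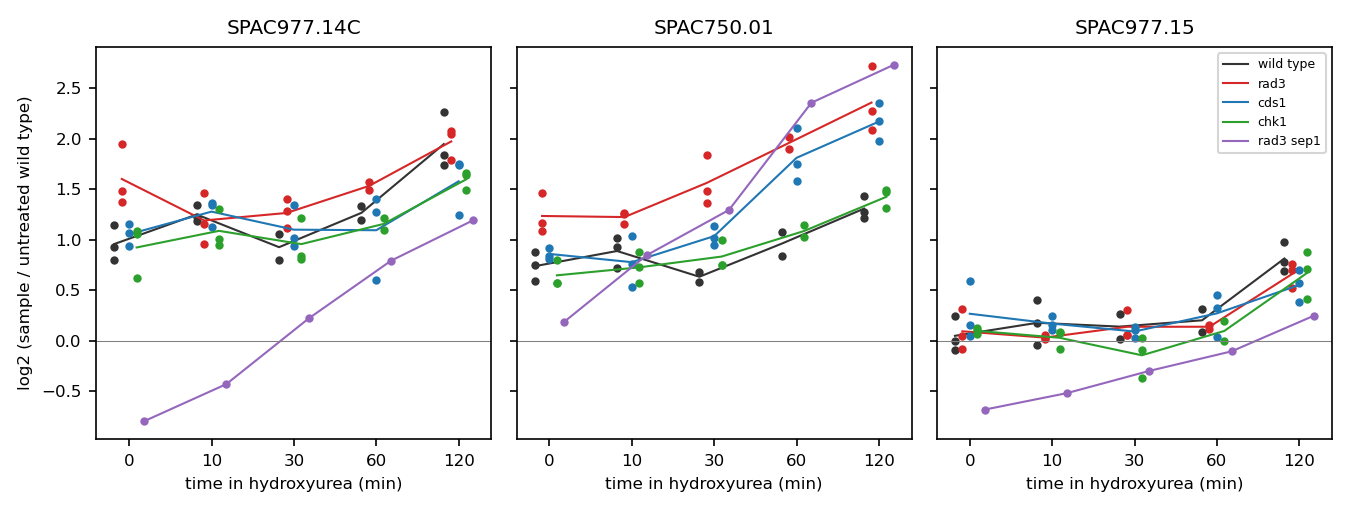
Log2 ratio to untreated wild type of SPAC977.14C, SPAC750.01 and SPAC977.15 over time in hydroxyurea (min, categories), with 1 point per sample and a line through the group means of each strain. The single rad3 sep1 samples start below the other strains in all 3 panels; at 120 min they remain below for SPAC977.14C and SPAC977.15 and lie above the highest rad3 sample for SPAC750.01.

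The probes of SPAC750.01 did not give the same result. Over the 61 samples their r was 0.17, against 0.86 for SPAC977.14C and a median of 0.52 over all features. The late rise in cds1 was 0.38 on the first probe and 1.89 on the second, and in rad3 0.41 and 1.44. The difference between the late rises of cds1 and wild type was thus carried by the second probe, with 1.38 against 0.10. The untreated difference of rad3sep1 from rad3 was -1.05 ± 0.20 (adjusted p = 1.52e-04) on the mean of the probes, with -2.18 on the first and 0.079 on the second, so that the second probe alone turned the direction.

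The first probe of SPAC750.01 followed SPAC977.14C with an r of 0.89 over all 61 samples and 0.78 over the 56 without rad3sep1. For the second probe the values were 0.13 and 0.48. The samples share strains, times and the reference, so these are descriptions. In rad3sep1 the first probe read -0.69, -0.06, 0.21, 1.02 and 1.38 over the 5 times. The second read 1.06, 1.75, 2.38, 3.69 and 4.09, the highest values of any probe of these reductases in that strain. Both probes rose with time there, from starting levels that differed.

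**Figure D4:**
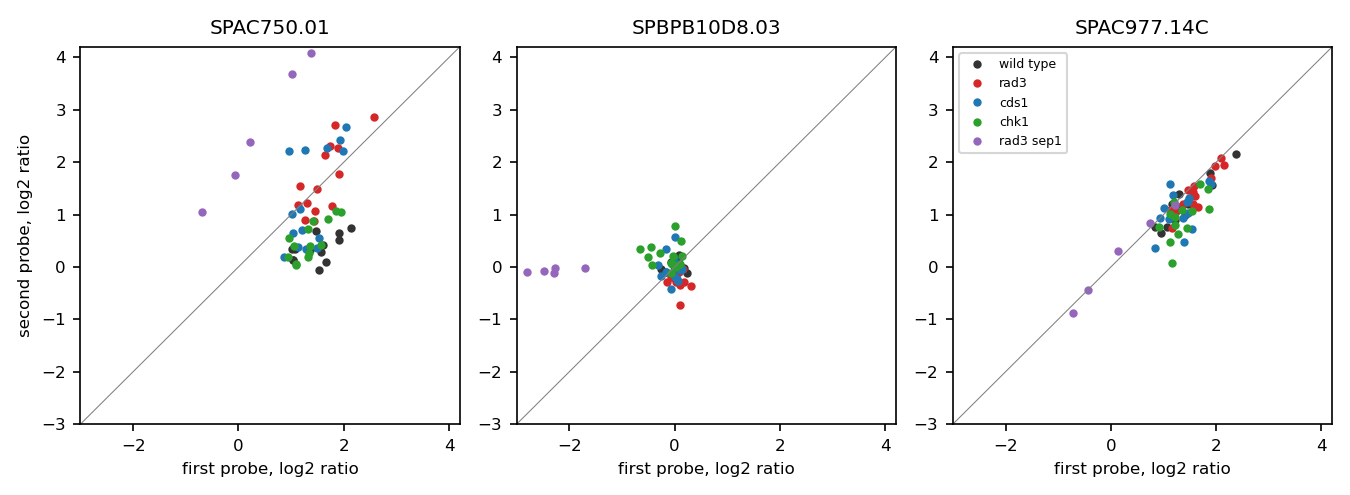
Log2 ratio of the second probe against the first for SPAC750.01, SPBPB10D8.03 and SPAC977.14C, 1 point per sample, coloured by strain, with the line of equality. SPAC977.14C follows the line. The 5 rad3 sep1 samples of SPBPB10D8.03 lie far to the left at about 0 on the second probe. For SPAC750.01 the wild type and chk1 samples lie below the line and the rad3 sep1 samples above it. Its rad3 and cds1 samples lie on both sides.

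The genes beside SPAC977.14C on the left arm of chromosome I moved partly with it. SPAC977.15, of the dienelactone hydrolase family, is its inner neighbour, and the next gene inward carries the symbol dak2 (a dihydroxyacetone kinase) and is outside the naming rule. SPAC977.15 stood at -0.69 in untreated rad3sep1, while the 3 rad3 samples lay at -0.08, 0.31 and 0.05. The difference was -0.78 ± 0.19 (adjusted p = 0.00263), and for dak2 it was -1.03 ± 0.13 (adjusted p = 1.10e-07). Over time in rad3sep1 SPAC977.15 climbed to 0.25 at 120 min, a late rise of 0.76 ± 0.20 (adjusted p = 0.0059). dak2 rose by 0.93 ± 0.14 (adjusted p = 1.76e-06). The rad3sep1 rise of SPAC977.15 did not pass under quantile normalization (0.63). The untreated difference of SPAC977.15 between rad3sep1 and rad3 did not hold under every alternative run.

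In wild type SPAC977.15 lay between -0.10 and 0.24 at 0 min and at 0.78, 0.98 and 0.69 at 120 min, without overlap. The late rise was 0.46 ± 0.12 (adjusted p = 0.00377) and held when any sample was left out and on either probe. Its r with SPAC977.14C was 0.74 over all 61 samples and 0.62 without rad3sep1. Outward of SPAC977.14C, the pseudogene SPAC977.13C rose late in rad3 by 0.56 ± 0.18 (adjusted p = 0.0235). That call was lost without rad3 0 min replicate 3 (0.33), 60 min replicate 2 (0.43) or 120 min replicate 2 (0.51).

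The next gene outward, SPAC977.12, encodes a predicted asparaginase, an enzyme that releases ammonium from asparagine, and it fell. In rad3 its ratios were 0.24, -0.01 and 0.44 at 0 min and -0.56, -0.79 and -0.40 at 120 min, without overlap. The late fall was -0.65 ± 0.14 in rad3 (adjusted p = 6.50e-04), -0.45 ± 0.13 in cds1, -0.53 ± 0.14 in chk1 and -0.66 ± 0.23 in rad3sep1. In wild type it was -0.35 ± 0.14 and did not pass (adjusted p = 0.0634), although the 120 min samples, at -0.53, -0.54 and -0.21, all lay below those at 0 min. The call was lost in cds1 without 0 min replicate 2 (-0.40) and in chk1 without 0 min replicate 1 (-0.41). The rad3 call did not hold under every alternative run. The other predicted asparaginase gene among the 44, SPAC186.03 on the right arm, was called in no comparison. The water and glycerol channel gene SPAC977.17 was called in none either.

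On the left arm of chromosome II the 4 neighbouring SPBPB10D8 genes went separate ways. SPBPB10D8.02C, a predicted arylsulfatase, which frees sulfate from sulfate esters, was at -1.17 in untreated rad3sep1. The rad3 samples lay at -0.33, 0.07 and 0.20, and the difference was -1.15 ± 0.20 (adjusted p = 4.15e-05) with -1.09 and -1.21 on the probes. In cds1 it went from -0.22, -0.03 and -0.13 at 0 min to 0.44, 0.72 and 0.44 at 10 min, without overlap.

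The early rise of SPBPB10D8.02C in cds1 was 0.65 ± 0.12 (adjusted p = 0.00144), which missed the threshold on the second probe alone (0.59, adjusted p = 0.0532). The late rise in cds1 was 0.60 ± 0.12 (adjusted p = 2.04e-04). In chk1, where the samples at 0 min already stood at 0.46, 0.53 and 0.32, no change passed. It rose late in rad3sep1 by 0.80 ± 0.21 (adjusted p = 0.00595) and in rad3 by 0.34 ± 0.13 (adjusted p = 0.0493). The rad3 call was lost when any of 6 of the 8 samples was left out, with values of 0.19 to 0.45 over the 8, and its sign turned on the second probe alone (-0.063).

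SPBPB10D8.04C, a predicted membrane transporter, fell. In cds1 its ratios went from 0.64, 0.52 and 0.45 at 0 min, through -0.03, -0.04 and 0.02 at 60 min, to -0.38, -0.31 and -0.27 at 120 min. The late fall was -0.71 ± 0.10 in cds1 (adjusted p = 9.66e-07), -0.54 ± 0.11 in rad3 (adjusted p = 2.91e-04) and -0.33 ± 0.11 in chk1 (adjusted p = 0.0195). The cds1 and rad3 calls held on each probe alone and when any sample was left out, whereas the chk1 call was lost without 0 min replicate 1 (-0.32), 0 min replicate 3 (-0.32) or 60 min replicate 1 (-0.24).

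Untreated cds1 cells carried more SPBPB10D8.04C than untreated wild type, which stood at -0.01, -0.18 and -0.11. The difference was 0.64 ± 0.12 (adjusted p = 0.00414). It was lost without wild type replicate 2 (0.60, adjusted p = 0.0513) or cds1 replicate 1 (0.58, adjusted p = 0.0835), and on either probe alone.

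SPBPB10D8.01, a predicted cysteine transporter, stood higher at 10 min and lower at 120 min than at the start in rad3. Its ratios there were -0.30, -0.05 and -0.24 at 0 min, at 0.27, 0.36 and 0.26 at 10 min and at -0.61, -0.77 and -0.79 at 120 min. The 3 groups did not overlap. The early rise of 0.47 ± 0.11 passed (adjusted p = 0.0161) and was lost without 0 min replicates 1 (0.42) or 3 (0.45), or without replicate 2 at 10 min (0.46) or at 30 min (0.44). It was also lost on the second probe alone (0.36, adjusted p = 0.403). The late response averages the 60 and 120 min samples and passed as a fall in cds1, -0.37 ± 0.11, and chk1, -0.32 ± 0.12. At 120 min every sample of wild type, rad3, cds1 and chk1 lay at -0.24 or lower, while the rad3sep1 sample was at 0.27. The cds1 call was lost without 0 min replicates 1 (-0.27) or 2 (-0.35) or 120 min replicate 1 (-0.26), and the chk1 call without 0 min replicates 2 (-0.29) or 3 (-0.32) or 60 min replicate 1 (-0.26).

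The pseudogene SPBPB10D8.03 lies between them and was low in rad3sep1 at all 5 times, at -0.87, -1.28, -1.15, -1.21 and -1.45. Over the other 4 strains its samples lay between -0.31 and 0.39. The untreated difference from rad3 was -0.83 ± 0.16 (adjusted p = 2.39e-04). It came from 1 probe: the first read between -2.81 and -1.71 in rad3sep1 and the second between -0.12 and -0.02, and the second alone gave 0.20.

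SPBPB2B2.18, on the right arm of chromosome II, went the other way. In rad3sep1 it stood at 2.37, 2.29, 1.97, 1.84 and 3.55 over the 5 times, and at most 0.95 in the samples of the other strains. Untreated, it lay 1.99 ± 0.36 above rad3 (adjusted p = 7.21e-05), or 3.96-fold, with 1.58 and 2.39 on its probes. At each of the 5 times every rad3 sample also lay above every wild-type sample, with 0.42, 0.65 and 0.08 against 0.03, -0.67 and -0.16 at 0 min. The untreated difference of 0.65 ± 0.25 did not pass (adjusted p = 0.608).

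Also in this block, SPBPB2B2.05 rose late in wild type by 0.81 ± 0.25 (adjusted p = 0.015), from -0.10, 0.26 and 0.11 to 0.75, 2.12 and 1.08 at 120 min. The groups did not overlap, but the call was lost without 0 min replicate 1 (0.72) or 120 min replicate 2 (0.61). Untreated chk1 already stood at 0.75, 1.18 and 0.35. SPBPB2B2.06C rose late in rad3sep1 by 1.34 ± 0.43 (adjusted p = 0.026), from 0.23 to 2.18. Its chk1 samples were between -0.65 and 0.52 up to 60 min and at 1.44, 1.43 and 0.73 at 120 min, above every earlier chk1 sample, while the late change of chk1, 0.46 ± 0.26, did not pass (adjusted p = 0.183). The calls of both genes were lost under quantile normalization, with 0.60 for SPBPB2B2.05 and 0.62 for SPBPB2B2.06C.

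Of the SPBPB7E8 genes, which lie inside the right arm of chromosome II, SPBPB7E8.02 was among the most regular. SPBPB7E8.02, of the PSP1 family, rose late by 0.57 ± 0.13 in wild type, 0.70 ± 0.13 in rad3, 0.75 ± 0.12 in cds1, 0.53 ± 0.13 in chk1 and 1.22 ± 0.22 in rad3sep1. The highest adjusted p of these was 0.00184. Quantile normalization ended the rad3sep1 call, with 0.69. In cds1 the samples went from -0.24, 0.01 and -0.05 at 0 min to 0.51, 0.94 and 0.78 at 120 min, without overlap. The calls in wild type, rad3, cds1 and chk1 held on each probe alone and when any sample was left out. Its neighbour SPBPB7E8.01 fell late in wild type by 0.45 ± 0.14 (adjusted p = 0.0168), a call lost without 0 min replicate 1 (-0.38) or 120 min replicate 2 (-0.34). Every 120 min sample of SPBPB7E8.01 in wild type, rad3, cds1 and chk1 lay between -1.16 and -0.30. The means at 0 min were 0.19 in wild type, -0.15 in rad3, -0.46 in cds1 and -0.26 in chk1. The late changes of -0.28 in rad3, -0.26 in cds1 and -0.26 in chk1 did not pass (adjusted p = 0.158, 0.169 and 0.174).

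The clones SPAC869 and SPAC186, at the right end of chromosome I, held 2 calls. They carry, among other genes, a predicted amidase (SPAC869.01), urea transporter (SPAC869.03C), formamidase (SPAC869.04), hydroxyacid dehydrogenases (SPAC186.02C and SPAC186.07C) and lactate dehydrogenase (SPAC186.08C). SPAC869.09 is not one of these named by role. Of their 10 genes, SPAC869.09 rose late in cds1 by 0.57 ± 0.20 (adjusted p = 0.0308) and SPAC186.07C fell late in cds1 by -0.36 ± 0.11 (adjusted p = 0.0103). These 2 of 10 stand beside 25% of all features in late cds1, and no gene of the 10 was called in the other comparisons. The first was lost without replicate 2 at 0, 60 or 120 min (0.46, 0.47 and 0.55) or 0 min replicate 3 (0.63), and the second without 0 min replicate 1 (-0.32). At the end of that arm SPAC750.07C fell late in wild type by -0.72 ± 0.21 (adjusted p = 0.0109), from 0.05, -0.61 and -0.27 to -0.74, -1.41 and -1.38. The call was lost without 0 min replicate 1 (-0.55) or the averaged replicates 2 and 3 at 60 min (-0.63).

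On the left arm of chromosome II, SPBC1683.04, of a glycosyl hydrolase family that includes beta-glucosidases, rose late in wild type by 0.38 ± 0.10 (adjusted p = 0.00321), from 0.07, 0.21 and -0.02 to 0.69, 0.62 and 0.63 at 120 min. That call did not hold under every alternative run. SPBC1683.04 rose in chk1 by 0.31 ± 0.10 (adjusted p = 0.0156), which was lost without 0 min replicate 3 (0.28) or 60 min replicate 1 (0.24). SPBC1683.12, a predicted nicotinic acid transporter, rose in chk1 by 0.40 ± 0.13 (adjusted p = 0.0186) and in rad3sep1 by 0.77 ± 0.22 (adjusted p = 0.0096). The chk1 call was lost without 0 min replicate 1 (0.30) or the averaged replicates 2 and 3 at 60 min (0.35). SPBC1683.04 was lower in untreated rad3sep1 than in rad3 by -0.42 ± 0.15 (adjusted p = 0.0449), which was lost without any of the 3 rad3 samples (-0.43 to -0.39). Quantile normalization ended this call (-0.32), the chk1 call of SPBC1683.04 (0.22) and the rad3sep1 call of SPBC1683.12 (0.50).

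Of the 8 SPBC1348 genes, which begin at the second gene of chromosome II, SPBC1348.01 rose late in wild type (0.31 ± 0.10, adjusted p = 0.0189) and rad3sep1 (0.53 ± 0.16, adjusted p = 0.0207). SPBC1348.08C rose in wild type (0.28 ± 0.10, adjusted p = 0.0439), and SPBC1348.06C fell in cds1 (-0.38 ± 0.12, adjusted p = 0.0173). At the left end of chromosome I, SPAC212.08C fell in cds1 by -0.38 ± 0.12 (adjusted p = 0.0173). These changes were below 1.5-fold, and the wild-type and cds1 calls were each lost when 2 to 6 of the 8 or 9 samples were left out in turn, with values down to 0.27, 0.16, -0.24 and -0.30 in the order given. In cds1 the genes SPBC1348.06C and SPAC212.08C were both lost without 0 min replicate 1.

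The late changes were also set out by chromosome end, as a description. In wild type the medians were 0.04 at the left end of chromosome I (10 genes tested), 0.17 at its right end (13), 0.09 at the left end of chromosome II (15) and 0.30 at its right end (4). Calls at these ends were 2 higher and 0 lower, 1 and 1, 3 and 0, and 1 and 0. Of all features 12.3% were called higher and 12.1% lower late in wild type. In the same order the medians were 0.12, 0.17, 0.056 and 0.13 in rad3, and 0.051, 0.0026, -0.061 and 0.23 in cds1. They were -0.0089, -0.10, -0.12 and 0.18 in chk1, and 0.29, 0.37, 0.21 and 0.52 in rad3sep1. The 4 genes at the right end of chromosome II all lay above 0 in cds1 (0.18 to 0.34) and in rad3sep1 (0.12 to 1.34), and its median was the highest of the 4 ends in wild type, cds1, chk1 and rad3sep1. Every other end held genes on both sides of 0 in each strain. No difference between ends was tested.

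Several genes near the ends differed between replicate numbers. SPAC750.08C had the widest difference between replicate numbers of all 4921 features. Over the wild type, rad3, cds1 and chk1 samples that are single arrays, the 18 samples of replicate 1 lay between -2.25 and -0.75 with a median of -1.50. The 18 of replicate 2 lay between -0.65 and 0.04 with a median of -0.43, and did not overlap with them. The 16 of replicate 3 lay between -1.35 and -0.51 with a median of -0.94. In untreated cds1, for example, the 3 samples read -1.93, -0.16 and -1.04, and in untreated chk1 -2.18, -0.56 and -1.35. The probes followed each other, with an r of 0.94.

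SPAC212.02 and SPAC212.07C, at the other end of chromosome I, also went with the replicate number. For SPAC212.02 replicate 1 had a median of -0.22, replicate 2 of -0.90 and replicate 3 of -1.03. For SPAC212.07C, a pseudogene, the medians were 0.50, -0.29 and 0.25. The pattern was thus not the same for each gene, since replicate 1 was the lowest for SPAC750.08C and the highest for the SPAC212 genes.

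In the fit with the replicate number as a block, a test added after the values were seen, the number was called for 30 of the 44 genes, or 68.2%, against 66.2% of all features. That share is near the background. Of the 50 features with the widest difference between numbers 5 were chromosome-end genes. This is a larger share than the 44 genes make up of all 4921 tested features. That difference in share was not tested. No label says what the numbers share (culture, reference RNA or hybridization), and their part in the results was not tested beyond the fit with the block. In rad3sep1, whose samples are means of replicates 1 and 2, SPAC750.08C read -0.63, -0.24, -0.11, 0.31 and 0.63 over the 5 times.

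**Figure D5:**
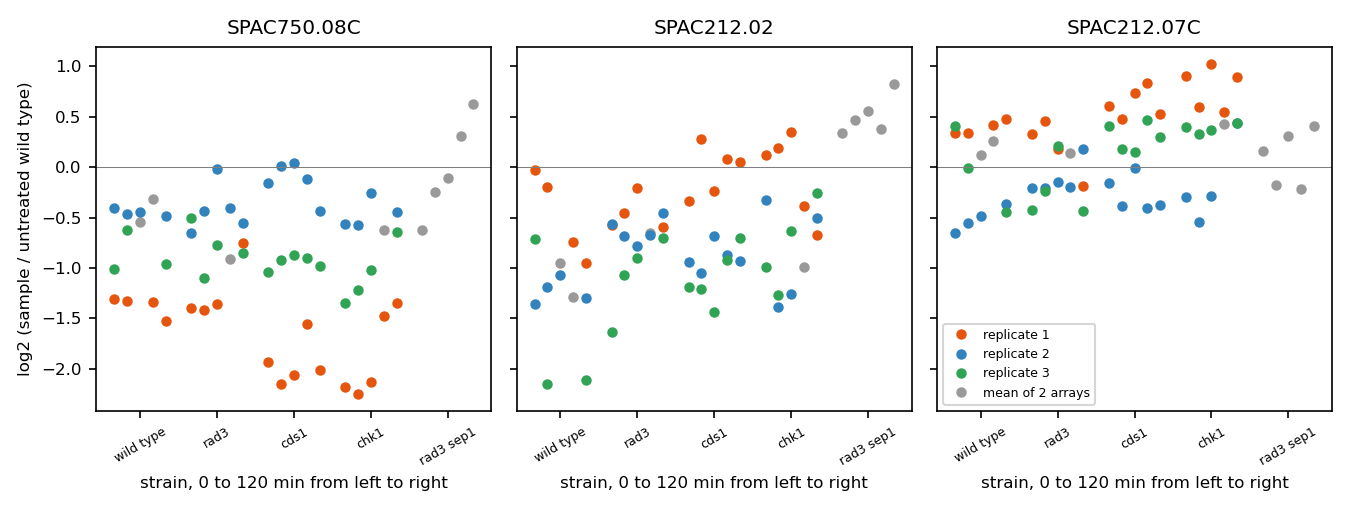
Log2 ratio to untreated wild type of SPAC750.08C, SPAC212.02 and SPAC212.07C in every sample, by strain and, within a strain, by time from 0 to 120 min. Colours give the replicate number of the labels, and grey points are means of 2 arrays that were averaged. For SPAC750.08C all samples of replicate 1 lie below all of replicate 2.

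Genes for proteins that act on these regions were counted as well, from lists drawn up from general knowledge. Of 24 tested heterochromatin and silencing factors 3 fell late in wild type, 1 in rad3, 3 in cds1 and 7 in chk1, and 2 rose in cds1, with medians of -0.17, -0.066, -0.091 and -0.14. Of all features 12.1%, 8.94%, 12.6% and 14.9% fell in these strains and 12.4% rose in cds1, so that 3 of 24 in wild type and in cds1 is the rate of the array. In wild type these included swi6, the heterochromatin protein HP1 of fission yeast, at -0.36 ± 0.13 (adjusted p = 0.0356) and clr2, a silencing complex subunit, at -0.29 ± 0.09 (adjusted p = 0.0105). In chk1 the 7 of 24 that fell stand beside 14.9% of all features, a difference in share that was not tested. There swi6 fell by 0.48 ± 0.13 on the log2 scale (adjusted p = 0.00387) and clr2 by 0.33 ± 0.09 (adjusted p = 0.0032). No gene of this list passed late in rad3sep1.

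Of 15 tested telomere proteins 2 fell late in wild type, 1 in rad3 and 3 in chk1, and 1 rose in chk1; none passed in cds1 or rad3sep1. The numbers falling in wild type and rad3 are near the 12.1% and 8.94% of all features that fell. In chk1 14.9% of all features fell late and 12.6% rose. The telomere repeat binding protein gene taz1 fell in wild type by 0.37 ± 0.14 on the log2 scale (adjusted p = 0.0417) and in chk1 by 0.44 ± 0.14 (adjusted p = 0.0143). The gene sgo2, whose product also sits at subtelomeres, fell by 0.40 ± 0.12 and 0.52 ± 0.12. Of 14 histone chaperones and chromatin repressors 3 fell late in wild type, 1 in rad3, 5 in cds1 and 2 in chk1, and none rose. Those in rad3 and chk1 are near the 8.94% and 14.9% of all features that fell. The 3 in wild type and 5 in cds1 stand beside 12.1% and 12.6% of all features. These differences in share were not tested. The repressor gene ssn6 fell by 0.66 ± 0.13 in rad3 (adjusted p = 1.22e-04) and by 0.55 ± 0.12 in cds1 (adjusted p = 6.38e-04). The silencing, telomere and chaperone lists were set beside the chromosome-end genes only as counts.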

How the data were processed

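Schizosaccharomyces pombe RNA was measured on 70 two-colour arrays. The deposited values were log2 ratios of Cy5 (sample) to Cy3 (untreated wild type), per the labels; base and scale were settled from the values, of which 100% were log2 of a ratio with 3 decimals (relative tolerance 1e-05). The authors' normalization is not stated in the labels, and none was added. Both probes of a feature were averaged, arrays not distinguishable between probes were averaged (r under 0.1), and 4921 of 4929 features with at least 2 arrays per group were fitted as 25 group means with limma 3.58.1 (lmFit, eBayes) in R 4.3.3, after a check on simulated data. P-values were adjusted by Benjamini-Hochberg; the threshold was 0.05. Of 9858 probes, 9632 had 1 gene symbol. Members, lists, comparisons and alternatives were chosen with earlier results of these data known. Members named were those past the threshold, at most 10 each way per comparison; role groups and lists give at most 4 and 3 with the smallest adjusted p. SPAC750.08C, SPAC212.02 and SPAC212.07C, and values that did not pass, were chosen after they were seen. Figures used Python 3.11.15 and matplotlib 3.10.9.

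The replicate numbers come from the sample titles, which do not say what a number shares. Deviations from group means correlated at -0.16 to 0.65 (median 0.37) over 110 same-numbered pairs, 104 of them above 0.1. Every pair was above 0.1 in untreated cds1 and chk1, in the early response of wild type, cds1 and chk1 and in the late response of rad3, cds1 and chk1, and the numbers were taken to pair samples there. The main fit does not use this pairing, so the named calls, their errors and their adjusted p treat samples as unpaired. The fit with the replicate number as a block is given as an alternative, by counts. Genes called only in that fit are not named as calls.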

Additional observations from a re-analysis of the deposited data

Results flagged for a closer look

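The late change of SPAC750.01 differed between cds1 and wild type by 0.74 (interaction term of the fit, adjusted p = 0.013). Rises were not counted by replicate, because the late wild-type samples include an average of arrays. The replicate numbers were also not taken to pair samples in this comparison. The late change of SPAC977.14C in rad3sep1 exceeded that in rad3 by 1.64 (adjusted p = 0.00155), and that of SPAC750.01 by 1.43 (adjusted p = 9.00e-04); each rests on 1 rad3sep1 sample per time. The first of these came mainly from 1 probe of SPAC750.01 (1.38 against 0.10), the others had like sizes on both, although SPAC750.01 in rad3sep1 missed the threshold on the first probe alone (1.48, adjusted p = 0.0762). No group had more than 3 samples, so none was searched for a single outlying sample.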

How the results depend on the processing

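Counts are of genes called, of 44 (40 on the first probe and 41 on the second alone), each with the share of all features called in the same fit, which moved too. Without the SPBPB7E8 clone, chosen after seeing the data, no count moved by over 1.5 times. With all 70 arrays as samples the counts were 2 for untreated rad3 (1.12% of all features), 3 for untreated cds1 (0.427%), 1 for untreated chk1 (0.203%), 16 for untreated rad3sep1 (41.7%), and 3 (3.29%) and 18 (36%) for its early and late response. Under quantile normalization they were 0 (1.18%), 3 (0.894%) and 1 (0.528%) for untreated rad3, cds1 and chk1, 2 for early rad3 (4.53%), 2 for late rad3sep1 (2.36%) and 0 for late cds1 against wild type (0.996%). The first probe alone gave 4 for late cds1 (17.6%), 2 for late chk1 (18.3%), 0 for late cds1 against wild type (1.09%) and 1 for late rad3sep1 against rad3 (0.125%). The second alone gave 0 for untreated cds1 (0.125%), 4 for untreated rad3sep1 (12.1%), 0 for early cds1 (0.313%), 1 (0.104%) and 4 (9.14%) for early and late rad3sep1 and 1 for late rad3 against wild type (0.855%). It kept a count of 1 for early rad3, but that was a gene that fell, and SPBPB10D8.01 was lost. With the replicate number as a block the counts were 2 (1.32%) and 3 (0.874%) for untreated rad3 and cds1, 13 for untreated rad3sep1 (32%), 1 for early rad3sep1 (0.427%), 16 (33.6%), 11 (29%), 16 (37.9%) and 17 (23.1%) for the late response of wild type, rad3, chk1 and rad3sep1, and 1 (3.58%) and 2 (6.08%) for late rad3 and cds1 against wild type; the block ended none of the 57 calls.

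Leaving out 1 sample gave 7 to 12 for late wild type, 4 to 6 for late rad3, 6 to 12 for late cds1, 4 to 10 for late chk1, 0 to 1 for untreated rad3 and chk1, 0 to 2 for untreated cds1, 6 for untreated rad3sep1, 0 to 1 for early rad3, 1 for early cds1, 0 to 2 for late cds1 against wild type, 2 for late rad3sep1 against rad3 and 0 for the others. Of 48 calls with samples to leave out 25 were lost without at least 1. On the first probe alone 32 of 55 calls held, and of all 57 calls 33 held on the second probe alone, 36 under quantile normalization and 14 under every alternative run. Signs turned for SPAC977.14C late in wild type (-0.26) and chk1 (-0.15) and SPAC750.01 late in wild type (-0.26) under quantile normalization, and on the second probe for SPBPB10D8.03 (0.20) and SPAC750.01 (0.079) in untreated rad3sep1 and SPBPB10D8.02C in late rad3 (-0.063); the cause was not tested. With 1 sample per rad3sep1 group, fits of that strain alone or without 1 of its samples were not run. The number of arrays and 2 probes per gene limit all values.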
